A study of Rattus norvegicus with 12 samples.

Results

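A set of 10 Wnt pathway genes was followed in the rat uterus, namely 4 ligands (Wnt4, Wnt5a, Wnt7a and Wnt7b), the receptor Lgr5, the R-spondins Rspo1 and Rspo3, and the secreted frizzled-related proteins Sfrp1, Sfrp2 and Sfrp4. They were chosen by symbol and are 10 of the genes in a table of 34034 genes, counted by 3′ mRNA sequencing. The study scraped the uterine lining of 8-week-old female rats, under tribromoethanol anaesthesia, with a bent needle until it bled, and it deposited 12 libraries in 4 groups of 3. The EEP group received the study's patch in 1 uterine horn 2 days after the injury, and the labels do not spell out EEP further. The CP group received a control patch of Endo-UdECM, printed without cells, after the same injury. The AS group had the injury and no patch. The normal group is labelled so, with no treatment given. The opposite horn of a rat was kept as its internal control or received CP, so libraries of different groups may come from horns of 1 animal. Strain, cycle stage and time of harvest were not given in the sources used here. The labels call the tissue endometrium, while the design text speaks of uterine tissue.

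Wnt proteins are secreted ligands that bind Frizzled receptors and LRP co-receptors, and in the canonical branch they stabilise β-catenin, which acts with TCF and LEF factors on target genes such as Axin2. R-spondins bind the LGR receptors and raise the number of Wnt receptors at the membrane by opposing the ubiquitin ligases RNF43 and ZNRF3, and secreted frizzled-related proteins bind Wnt ligands outside the cell. In the uterus, Wnt ligands of the epithelium and stroma are known for their part in gland formation and in the response to hormones and to the embryo.

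Library totals lay between 4866790 and 8938227 counts. The 37 genes encoded by mitochondrial DNA took 18.9%, 53.6% and 76.3% of the counts in the EEP libraries, 64.8% to 82.5% in CP, 68.7% to 75.2% in AS and 44.1% to 56.5% in normal. Nuclear counts were 1202525 to 5832552. Levels are given in CPM, the usual unit of counts brought to a common library size, here with library sizes scaled by the TMM method. A level of 3 raw counts, the limit that a count of 0 allows, equals 0.177 to 0.867 CPM. Smooth muscle markers summed to 1275 to 8053 CPM over the libraries, and which cells this RNA came from was not tested. Markers of stratified epithelium, which a uterus normally lacks, summed to 141, 118 and 100.3 CPM in EEP, 5.03, 31.6 and 44.7 in CP, 16.1, 0.384 and 0.395 in AS, and 0.949, 0.601 and 3.84 in normal, and their part in the values below was not tested. Every pair of libraries within a group differed by more than sampling noise. The labels do not say which libraries came from separate animals, so p-values measure the spread between these libraries. In bulk tissue, fewer cells of a type and less RNA per cell cannot be told apart.

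None of the 10 genes passed the test in any of the 6 pairwise comparisons (edgeR's quasi-likelihood test, Benjamini-Hochberg adjusted p under 0.05 over 13909 tested genes). The smallest adjusted p among the 60 member tests was 0.207. An unadjusted p under 0.05 was found in 7 of the 60 tests. These were 1 of 10 genes in EEP against normal (7.56% of all tested genes), 2 in CP against normal (12.7%), 2 in AS against normal (5.55%), 0 in EEP against AS (10.1%), 1 in EEP against CP (2.99%) and 1 in CP against AS (12%), counts too small to set apart from those shares. DESeq2 called 1 member, Sfrp1 in CP against normal (adjusted p = 0.0397), among the 276 genes it called in that comparison. It gave no adjusted p for 5 of the 10 members in EEP against AS and for 2 in EEP against normal, so it could not call those. The counts over all genes that follow are those of edgeR. Few genes of any kind passed: 1 of 13909 (0.00719%) in AS against normal, 1 (0.00719%) in CP against AS, 2 (0.0144%) in EEP against AS, 0 (0%) in EEP against CP, 0 (0%) in CP against normal and 1 (0.00719%) in EEP against normal. The typical variation between libraries of a group was 59.2% of a gene's level. Levels and fold changes below are therefore descriptions unless a test is named.

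Libraries of the compared groups did not overlap for 8 member comparisons. In EEP against normal this was Sfrp2, lower, where 8.44% of the tested genes had every EEP library below every normal one and 6.14% above. In CP against normal it was Rspo1, higher, with Sfrp1 and Sfrp2 lower (13.1% of tested genes above, 14.8% below). In AS against normal it was Rspo1, higher, with Lgr5 and Sfrp1 lower (6.51% above, 8.26% below). In CP against AS it was Rspo1, higher (8.73% above, 9.22% below). EEP against AS had no member apart (6.18% of tested genes above, 7.05% below), and neither did EEP against CP (3.87% above, 3.07% below).

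**Figure D1:**
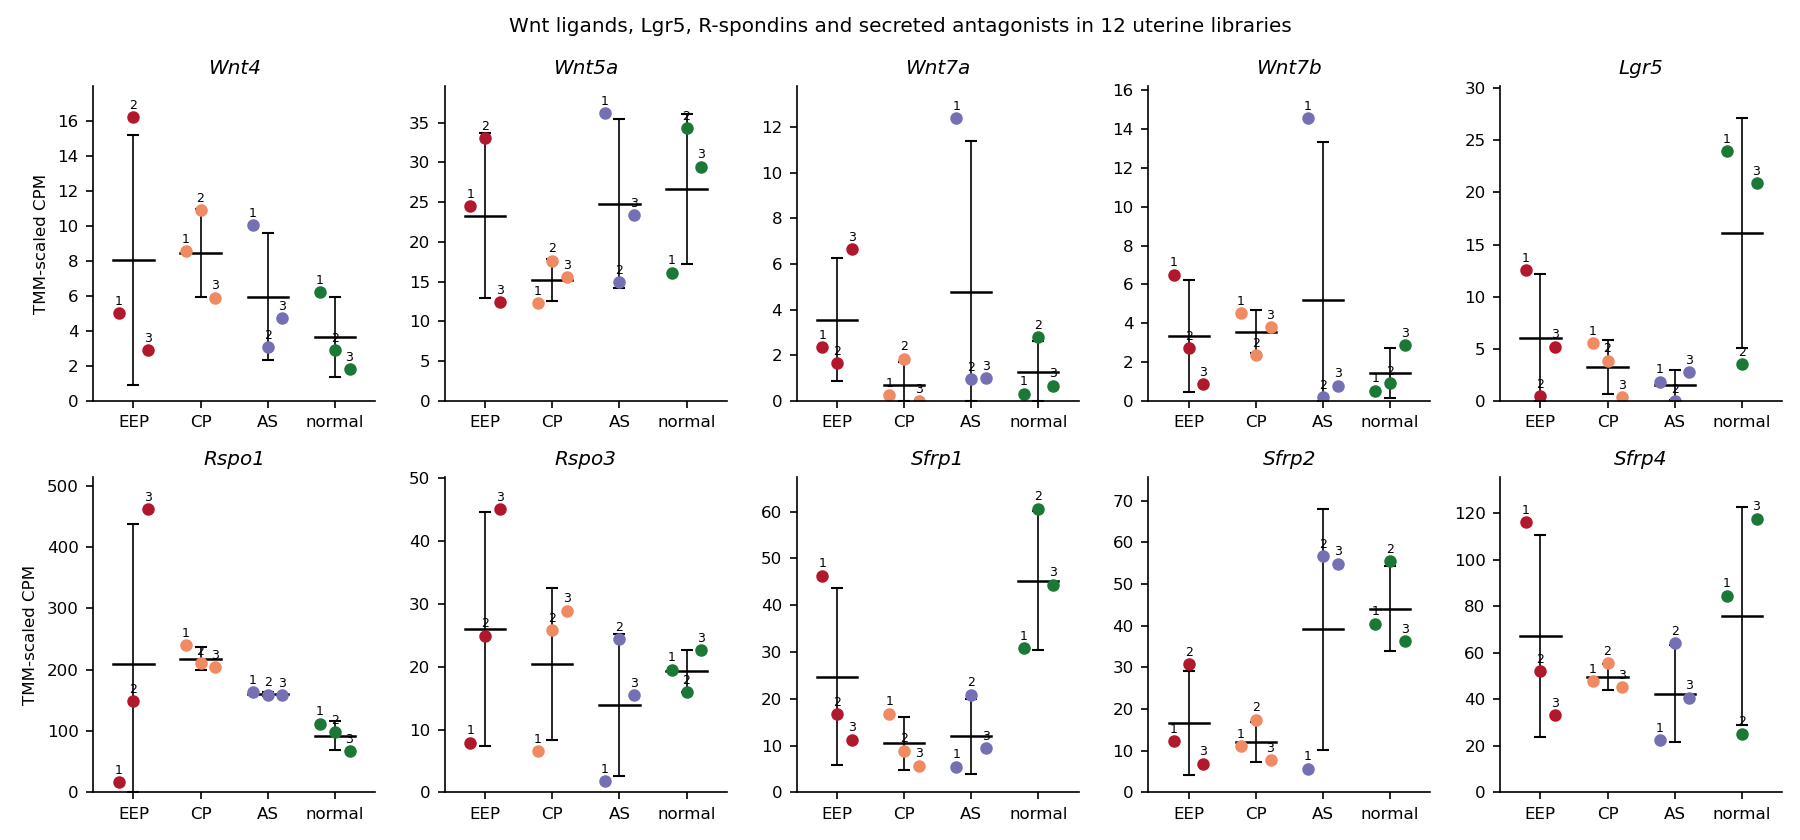
Level of each of the 10 genes in CPM (y axis) in the 12 libraries, by group (x axis: EEP, CP, AS, normal); dots are libraries marked with their replicate number, bars the group mean and whiskers the SD, stopped at 0. Sfrp1 lay at 30.8 to 60.7 CPM in normal libraries, above all CP and AS libraries, and library AS 1 held the highest levels of Wnt5a, Wnt7a and Wnt7b.

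Wnt4 is a ligand of uterine stroma and epithelium that is required for decidualisation in the mouse (rat chromosome 5, positions 149513573 to 149535415, plus strand, mRatBN7.2, 540 counts over the 12 libraries). It was read at 5.02, 16.2 and 2.89 CPM in EEP, 8.55, 10.9 and 5.90 in CP, 10.05, 3.07 and 4.74 in AS, and 6.22, 2.90 and 1.82 in normal. All groups overlapped, with the 2 highest levels in EEP 2 and CP 2. The smallest unadjusted p was that of CP against normal (log2 fold change 1.21, SE 0.720, unadjusted p = 0.111, adjusted p = 0.498).

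Wnt5a, which acts mostly through branches that do not need β-catenin (chromosome 16, positions 3697032 to 3718230, plus strand, 2128 counts over all libraries), had 24.5, 33.0 and 12.4 CPM in EEP, 12.3, 17.6 and 15.6 in CP, 36.2, 14.96 and 23.3 in AS, and 16.1, 34.3 and 29.5 in normal. Its mean was 23.3 ± 10.3 CPM in EEP, 15.2 ± 2.68 in CP, 24.8 ± 10.7 in AS and 26.6 ± 9.42 in normal (SD, n = 3 each), and the CP libraries were the least spread. CP against normal gave a log2 fold change of -0.81 (SE 0.450, unadjusted p = 0.0907, adjusted p = 0.468).

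Wnt7a, a ligand of the uterine epithelium that is needed for the normal patterning of the female tract in mice (chromosome 4, positions 123863108 to 123908981, minus strand), was thinly covered, with 208 counts in all. It stood at 2.36, 1.65 and 6.65 CPM in EEP, 0.251, 1.85 and 0 in CP, 12.4, 0.959 and 0.988 in AS, and 0.316, 2.80 and 0.672 in normal. Most of the AS mean of 4.78 ± 6.59 CPM came from library 1. The difference of CP from AS was -2.70 on the log2 scale (SE 1.38, unadjusted p = 0.0670, adjusted p = 0.449), and without AS 1 it was -0.39.

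Wnt7b, another epithelial ligand (chromosome 7, positions 116634817 to 116679459, minus strand, 319 counts), followed the same library. It reached 6.50, 2.70 and 0.867 CPM in EEP, 4.52, 2.35 and 3.81 in CP, 14.6, 0.192 and 0.791 in AS, and 0.527, 0.901 and 2.88 in normal. AS 1 was the highest of the 12 libraries and AS 2 the lowest. The fitted difference of AS from normal was 1.84 (SE 1.19, unadjusted p = 0.139, adjusted p = 0.929), and it turned to -1.54 without AS 1.

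Across the 12 libraries Wnt7b went with the summed level of 12 epithelial markers (r = 0.846, rho = 0.790, r = 0.610 without AS 1 and EEP 1). The marker sum was 1434, 290.4 and 233 CPM in EEP, 977, 412 and 257 in CP, 2489, 158 and 220.0 in AS, and 518, 222 and 622 in normal. AS 1 held the highest marker sum and AS 2 the lowest, as for Wnt7b itself. AS 1 also held the highest leukocyte and smooth muscle marker sums, at 2502 and 8053 CPM. For Wnt7a the relation was weak (r = 0.326, rho = 0.070, r = -0.427 without the same libraries). These values share the library and its depth, and the part of epithelial content in the Wnt7b differences was not tested. By correlation of log2(CPM + 1) over the 12 libraries the genes most like Wnt7b were Enkur (r = 0.922), S100g (r = 0.921) and Slc16a14 (r = 0.920). S100g, a calcium-binding protein, read 544, 154 and 59.8 CPM in EEP, 377, 236 and 720 in CP, 2243, 54.5 and 55.3 in AS, and 50.4, 25.8 and 84.2 in normal. For Wnt7a the nearest gene was Foxa1 (r = 0.903, and 0.653 without the 2 outermost libraries), for Wnt4 Nup98 (r = 0.868) and for Wnt5a Alkbh2 (r = 0.900).

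**Figure D2:**
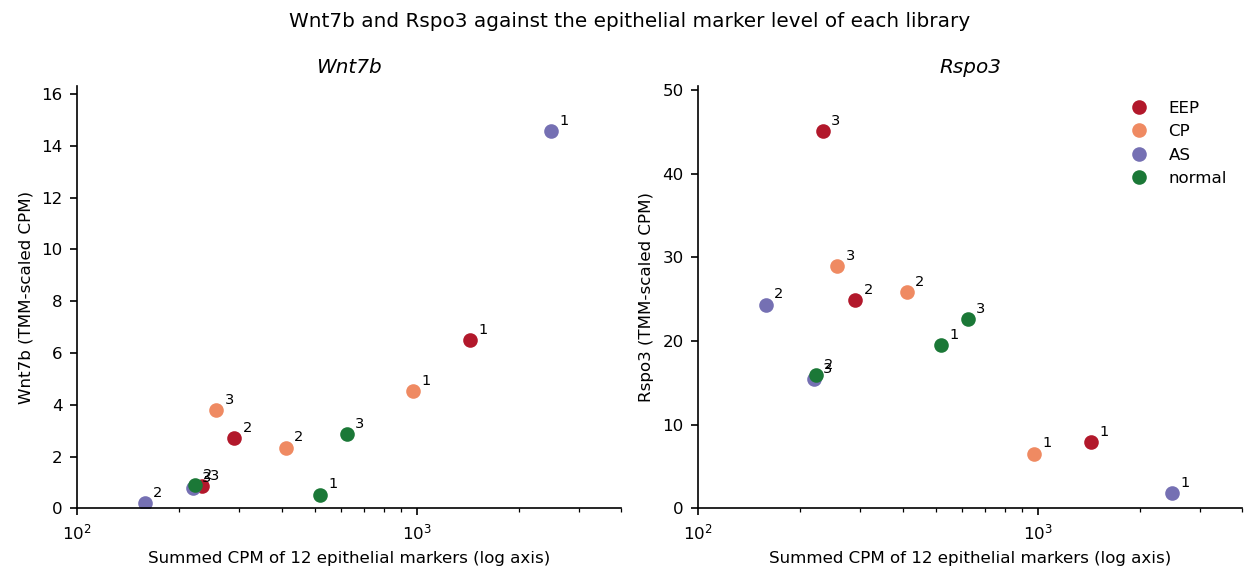
Levels of Wnt7b and Rspo3 in CPM (y axes) against the summed level of 12 epithelial markers in CPM (x axis, log scale) in the 12 libraries, coloured by group. Wnt7b was highest and Rspo3 lowest in AS 1, which had the highest marker sum of 2489 CPM; r was 0.846 for Wnt7b and -0.829 for Rspo3.

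Lgr5 is a receptor for R-spondins and marks stem cells in the gut and a population of uterine epithelium that declines after development in the mouse (chromosome 7, positions 51087059 to 51221882, minus strand, 785 counts). It had 12.5, 0.450 and 5.20 CPM in EEP, 5.53, 3.86 and 0.381 in CP, 1.84, 0 and 2.77 in AS, and 23.9, 3.50 and 20.9 in normal. All 3 AS libraries lay below all 3 normal libraries, by a margin of under 1 CPM between AS 3 and normal 2. The 2 other groups reached into the normal range. AS stood lower than normal by a log2 fold change of -3.38 (SE 1.19, unadjusted p = 0.0115), which did not pass (adjusted p = 0.802, with 0.00378 to 1 over the alternatives).

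A further protein-coding gene, LOC120093591, lies inside the Lgr5 span on the same strand (chromosome 7, positions 51193071 to 51213603), so that counting could have split reads between both. It read 31.3, 13.1 and 20.8 CPM in EEP, 19.6, 18.3 and 7.80 in CP, 1.84, 4.60 and 14.2 in AS, and 50.2, 5.51 and 32.9 in normal, and tracked Lgr5 over the 12 libraries (r = 0.771, rho = 0.895). Its mean was also lowest in AS, at 6.89 ± 6.50 CPM against 29.5 ± 22.5 in normal (SD, n = 3 each), but with overlap. The annotated 3′ end of Lgr5, at position 51087059 on the minus strand, lies outside the span of LOC120093591. Whether reads were split was not tested, and the correlation does not show it, so the Lgr5 level stays uncertain to that extent.

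The genes most like Lgr5 were Pamr1 (r = 0.912, rho = 0.930, r = 0.857 without the 2 outermost libraries) and Erbb4 (r = 0.903, rho = 0.929, then 0.847). Erbb4, a receptor of the EGF family, had 5.68, 0 and 1.16 CPM in EEP, 1.01, 1.18 and 0 in CP, 0.167, 0 and 0 in AS, and 21.8, 0.300 and 24.5 in normal. Normal 2 stood apart from the other 2 normal libraries for Lgr5, LOC120093591 and Erbb4 alike.

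Rspo1, an R-spondin (chromosome 5, positions 137251629 to 137273273, plus strand), had 283 to 1595 raw counts per library. Its levels were 16.7, 149 and 461 CPM in EEP, 240.05, 211 and 204 in CP, 164, 159 and 158 in AS, and 112, 98.5 and 67.1 in normal. All AS and CP libraries lay above all normal ones, and all CP libraries lay above all AS ones. The EEP libraries spanned the whole range and held both the lowest and the highest of the 12. CP stood above normal by a log2 fold change of 1.24 (SE 0.675, unadjusted p = 0.0850, adjusted p = 0.459).

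The Rspo1 level followed the mitochondrial share of the library. Over the 12 libraries r on the log2(CPM + 1) scale was 0.923 and rho 0.860, with r = 0.718 without EEP 1 and normal 3, and 14 of the 13909 tested genes had an r as high, Rspo1 among them. EEP 1, with 18.9% mitochondrial counts, had the lowest Rspo1 level. Scaled to mitochondrial counts instead of library size, in the same way as CPM, Rspo1 stood at 208, 380 and 411 in EEP, 143, 306 and 306 in CP, 159, 139 and 188 in AS, and 247, 265 and 240 in normal. On that scale the AS libraries lay below the normal ones, the opposite of the CPM order. Every AS library had a higher mitochondrial share than every normal one, which by itself lowers AS on that scale. With mitochondrial genes removed from the fit, the Rspo1 log2 fold change against normal was 1.23 in CP (1.24 with them). In EEP it was 1.17 both with and without them. The part of the mitochondrial share in the Rspo1 differences was not tested. The other 9 genes had r between -0.65 (Sfrp1) and 0.15 (Wnt4) with that share.

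EEP against normal gave 1.17 for Rspo1 (SE 0.674, adjusted p = 0.755). Without EEP 1 it was 1.71 (SE 0.407, adjusted p = 0.0471), in a fit that called 200 genes against 1 with all libraries. Without EEP 3 it was -0.14, and the adjusted p ranged from 0.0471 to 1 over all alternatives. EEP 3 and EEP 1 had the highest and the lowest mitochondrial share of the group. Rspo1 also went with the endothelial marker sum (r = 0.90, rho = 0.72, r = 0.66 without EEP 1 and EEP 3), and the gene nearest to it was Pecam1, an adhesion molecule of endothelial cells (r = 0.957, rho = 0.832, then 0.783). The endothelial sum was 29.9, 93.1 and 215 CPM in EEP, 105, 126 and 131 in CP, 61.6, 148 and 116 in AS, and 74.1, 64.8 and 67.7 in normal. Its part in the Rspo1 differences was not tested.

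**Figure D3:**
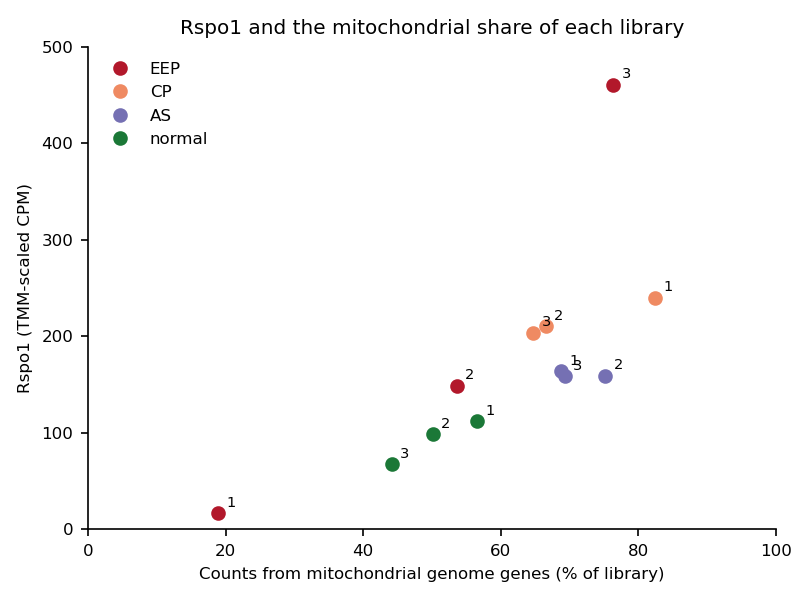
Rspo1 level in CPM (y axis) against the percentage of counts on the 37 mitochondrial genes (x axis) in the 12 libraries, coloured by group. The EEP libraries lie at both ends, from 16.7 CPM at 18.9% to 461 CPM at 76.3%.

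Rspo3, the other R-spondin measured here (chromosome 1, positions 28283914 to 28368661, plus strand, 1584 counts), showed little that followed the groups. It read 7.92, 24.9 and 45.1 CPM in EEP, 6.54, 25.9 and 28.9 in CP, 1.84, 24.4 and 15.4 in AS, and 19.5, 15.9 and 22.6 in normal. EEP 1, CP 1 and AS 1 were each the lowest of their group. The mean was 26.0 ± 18.6 CPM in EEP, 20.4 ± 12.1 in CP, 13.9 ± 11.3 in AS and 19.4 ± 3.36 in normal (SD, n = 3 each), and the libraries of all groups overlapped. The smallest unadjusted p was that of EEP against AS (log2 fold change 0.89, SE 0.734, unadjusted p = 0.241, adjusted p = 0.719). Rspo3 ran against the epithelial marker sum (r = -0.829, rho = -0.510, r = -0.552 without AS 1 and EEP 1), and it ran against Wnt7b (r = -0.723, rho = -0.413, r = -0.460 without AS 1 and AS 2).

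The secreted frizzled-related proteins gave 6 of the 7 tests with an unadjusted p under 0.05. Sfrp1 (chromosome 16, positions 68575763 to 68614180, minus strand, 2635 counts) had 46.3, 16.7 and 11.3 CPM in EEP, 16.8, 8.90 and 5.71 in CP, 5.53, 20.9 and 9.49 in AS, and 30.8, 60.7 and 44.4 in normal. No CP or AS library reached the lowest normal one, while EEP 1 fell inside the normal range. The mean was 10.5 ± 5.73 CPM in CP and 11.97 ± 7.99 in AS, against 45.3 ± 14.96 in normal (SD, n = 3 each).

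CP stood lower than normal for Sfrp1 by a log2 fold change of -2.12 (SE 0.599, unadjusted p = 0.00263), with an adjusted p of 0.207 that ranged from 0.00130 to 0.597 over the alternatives. AS stood lower than normal by -1.92 (SE 0.593, unadjusted p = 0.00496, adjusted p = 0.721, with 0.0109 to 1 over the alternatives). EEP stood above CP by 1.26 (SE 0.588, unadjusted p = 0.0467, adjusted p = 0.9997), and by 0.43 without EEP 1. Sfrp1 ran against the mitochondrial share over the libraries (r = -0.65, rho = -0.524, r = -0.458 without EEP 1 and normal 3). It was weakly related to the stromal marker sum (r = 0.513, rho = 0.490, r = 0.430 without the 2 outermost libraries). That sum was 7521, 3574 and 2634 CPM in EEP, 3838, 3600 and 5353 in CP, 7592, 5678 and 5484 in AS, and 6679, 8984 and 9000 in normal, so that every CP library lay below every normal one for the stromal markers too. The part of either was not tested. The gene nearest to it was Clip3 (r = 0.949).

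Sfrp2 (chromosome 2, positions 169089517 to 169097064, plus strand, 2552 counts) separated the patched libraries from the normal ones. It had 12.3, 30.8 and 6.94 CPM in EEP, 11.1, 17.5 and 7.80 in CP, 5.69, 56.8 and 54.9 in AS, and 40.5, 55.6 and 36.4 in normal. Every EEP and CP library lay below every normal library, while AS 3 lay in the normal range, AS 2 just above it, and AS 1 was the lowest of the 12. Of the marker sums, that of stratified epithelium, which also set EEP and CP apart from normal, ran against Sfrp2 (r = -0.701, rho = -0.720, r = -0.876 without EEP 1 and EEP 2). The leukocyte sum gave r = -0.681 (rho = -0.587, r = -0.445 without AS 1 and CP 3) and the mesothelium sum r = 0.663 (rho = 0.573, r = 0.518 without AS 1 and normal 2). Their part in the Sfrp2 differences was not tested.

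For Sfrp2, EEP stood lower than normal by a log2 fold change of -1.40 (SE 0.655, unadjusted p = 0.0484, adjusted p = 0.657). CP stood lower than normal by -1.86 (SE 0.669, unadjusted p = 0.0130, adjusted p = 0.273, with 0.00549 to 0.641 over the alternatives). CP stood lower than AS by -1.69 (SE 0.668, unadjusted p = 0.0221, adjusted p = 0.351, with 0.0343 to 0.596 over the alternatives). Comparisons with normal share the 3 normal libraries, so they are not independent of one another.

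Sostdc1, an antagonist of BMP and Wnt signalling, was the gene most like Sfrp2 among all tested genes and came closer than any gene named for the other 9 members (r = 0.988, rho = 0.993, r = 0.982 without the 2 outermost libraries). It read 2.31, 7.81 and 0.578 CPM in EEP, 1.51, 5.88 and 1.33 in CP, 0, 34.5 and 25.1 in AS, and 14.8, 26.5 and 18.2 in normal. As with Sfrp2, every EEP and CP library lay below every normal one and AS 1 stood apart from AS 2 and AS 3. Sulf1 (r = 0.959) and Tead1 (r = 0.955) came next.

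Sfrp4 (chromosome 17, positions 45278867 to 45330806, minus strand, 6146 counts) had 116, 52.2 and 33.2 CPM in EEP, 47.8, 55.7 and 45.3 in CP, 22.4, 64.3 and 40.7 in AS, and 84.7, 25.3 and 118 in normal. All groups overlapped, with normal 2 the second lowest library of all. Nme8, which overlaps Sfrp4 on the opposite strand, had 0 counts. AS stood lower than normal by a log2 fold change of -0.84 (SE 0.539, unadjusted p = 0.139, adjusted p = 0.929). Among the secreted frizzled-related proteins, r was 0.550 for Sfrp1 and Sfrp2 (rho = 0.573, 0.322 without normal 2 and AS 1), 0.498 for Sfrp1 and Sfrp4 (rho = 0.490, 0.873 without the same libraries) and 0.261 for Sfrp2 and Sfrp4 (rho = 0.329, -0.150 without AS 1 and EEP 3). Each r shifted when 2 libraries were left out, upward for Sfrp1 and Sfrp4 and downward for the other pairs.

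**Figure D4:**
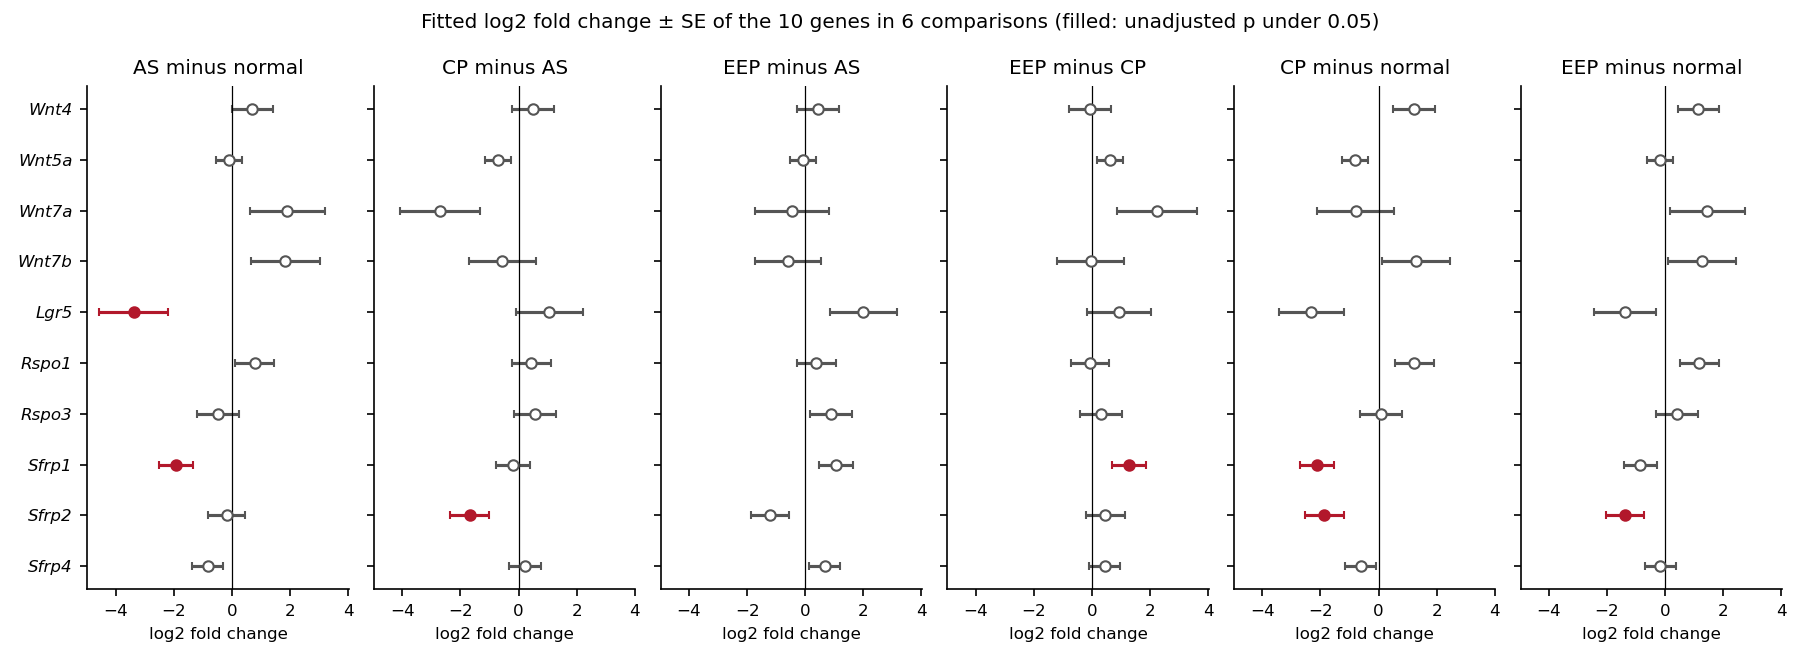
Fitted log2 fold change of each of the 10 genes (x axis, with SE) in the 6 comparisons; filled red points have an unadjusted p under 0.05 and none has an adjusted p under 0.05. The 7 red points belong to Lgr5, Sfrp1 and Sfrp2.

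Over the 10 genes the median log2 fold change was 0.12 in EEP against normal (all tested genes -0.01), -0.70 in CP against normal (all -0.04), -0.14 in AS against normal (all 0.03), 0.41 in EEP against AS (all 0.02), 0.45 in EEP against CP (all 0.04) and 0.01 in CP against AS (all -0.02). The mean was highest in normal for Wnt5a, Lgr5, Sfrp1, Sfrp2 and Sfrp4, in CP for Wnt4 and Rspo1, in AS for Wnt7a and Wnt7b, and in EEP for Rspo3. When the 4 groups of each gene were ordered by mean, the libraries of neighbouring groups overlapped in every case but AS and normal for Rspo1. Against normal, 5 genes were above 0 and 5 below in EEP, and 4 above and 6 below in both CP and AS. The counts were 6 and 4 in EEP against AS, 7 and 3 in EEP against CP, and 5 and 5 in CP against AS. One library of the AS group weighed on several of these values: AS 1 held the highest Wnt5a, Wnt7a and Wnt7b and the lowest Rspo3, Sfrp1, Sfrp2 and Sfrp4 of all 12 libraries.

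The rest of the pathway was read from a list of 78 genes, of which 51 had enough counts to be tested. They were other ligands (4 of 15 tested), secretion factors (2 of 2), receptors and co-receptors (13 of 15), the R-spondin and LGR axis (3 of 6), other antagonists (6 of 14), intracellular parts (13 of 14) and target genes (10 of 12). No gene of the list passed the edgeR test in any comparison. By DESeq2 1 did, Lgr6 in CP against normal (adjusted p = 0.0273), among the 276 genes of any kind that DESeq2 called there. For some genes of the list, such as Wnt2 and Nkd1 in EEP against AS, DESeq2 gave no adjusted p and so could not call them. Without the low-count filter edgeR called 3 in EEP against normal (Axin2, Bcl9l and Sostdc1), 5 in CP against normal (Axin2, Bcl9l, Fzd1, Lgr6 and Sostdc1), 2 in AS against normal (Lgr6 and Wnt2), 2 in EEP against AS (Sostdc1 and Wnt2), 0 in EEP against CP and 2 in CP against AS (Axin2 and Sostdc1). In the same order, that unfiltered fit called 232, 445, 154, 143, 5 and 230 genes of any kind. The 4 other ligands had a median log2 fold change against normal of -0.98 in EEP (3 below 0), -0.91 in CP (4 below 0) and -1.55 in AS (4 below 0). The 6 other antagonists, Sostdc1 among them, had a median of -0.45 in EEP (4 below 0), -0.98 in CP (6 below 0) and -0.52 in AS (5 below 0). These 3 comparisons share the normal libraries, and over all genes their medians were -0.01, -0.04 and 0.03. At an unadjusted p under 0.05, EEP against normal had 2 of the 51 genes higher and 2 lower (7.56% of all tested genes in either direction), CP against normal 4 and 4 (12.7%), AS against normal 1 and 6 (5.55%), EEP against AS 5 and 2 (10.1%), EEP against CP 0 and 1 (2.99%), and CP against AS 7 and 2 (12%).

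Axin2, a scaffold of the β-catenin destruction complex and a general target of the pathway, stood at 35.8, 147 and 93.4 CPM in EEP, 55.6, 61.6 and 169 in CP, 24.1, 26.7 and 48.4 in AS, and 23.3, 37.5 and 34.3 in normal. All CP libraries lay above all AS and normal libraries, and EEP 1 was inside the normal range. The log2 fold change was 1.53 in EEP against normal (SE 0.522, unadjusted p = 0.00936, adjusted p = 0.547), 1.59 in CP against normal (SE 0.523, unadjusted p = 0.00765, adjusted p = 0.244) and 1.53 in CP against AS (SE 0.524, unadjusted p = 0.00979, adjusted p = 0.312), with 0.89 and 0.85 without CP 3 for these last comparisons. AS and normal were close, at means of 33.07 ± 13.4 and 31.7 ± 7.47 CPM (SD, n = 3 each). Bcl9l, a co-activator of β-catenin, also stood above normal in CP (log2 fold change 1.97, SE 0.631, unadjusted p = 0.00631, adjusted p = 0.233), with 55.8, 53.6 and 98.8 CPM in CP against 19.6, 16.9 and 16.4 in normal. In EEP it had 12.8, 87.1 and 62.4 CPM, on both sides of the normal range (log2 fold change 1.61, SE 0.625, unadjusted p = 0.0199, adjusted p = 0.603).

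The promoter windows of 2 genes are printed. Axin2 was taken as the classical target, and Sfrp2 as an antagonist with every EEP and CP library below every normal one. That order was not particular to Sfrp2, since the antagonist Sostdc1 had it too. The unpatched AS 1 held the lowest Sfrp2 level of all libraries. The windows run from 250 bases before to 50 bases after the start, in RefSeq's GRCr8 build. They lie on the plus strand, at chr10:94398535-94398834 for Axin2 and chr2:171387286-171387585 for Sfrp2. Capitals mark the TCF/LEF words. Those searched, on both strands, began with CTTTG and ended in 1 of 4 ways, giving CTTTGAA for the first way, CTTTGAT for the next, CTTTGTA for another and CTTTGTT for the last.
Axin2: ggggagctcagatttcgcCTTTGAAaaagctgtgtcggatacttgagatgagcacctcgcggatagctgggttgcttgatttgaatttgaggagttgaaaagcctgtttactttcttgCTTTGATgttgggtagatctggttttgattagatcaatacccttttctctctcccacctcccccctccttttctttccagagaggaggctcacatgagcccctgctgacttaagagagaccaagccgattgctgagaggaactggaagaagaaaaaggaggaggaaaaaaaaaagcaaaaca
Sfrp2: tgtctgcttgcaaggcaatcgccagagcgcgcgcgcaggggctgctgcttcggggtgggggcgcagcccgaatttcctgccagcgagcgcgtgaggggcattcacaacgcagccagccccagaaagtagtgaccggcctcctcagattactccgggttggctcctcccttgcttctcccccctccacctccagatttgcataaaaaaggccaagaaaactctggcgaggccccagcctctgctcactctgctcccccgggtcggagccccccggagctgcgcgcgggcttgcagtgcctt
Axin2 held 2 words, CTTTGAA starting 232 bases and CTTTGAT starting 132 bases upstream of the start, and Sfrp2 held none. None of the 6 members with a window in the table (Wnt4, Wnt5a, Wnt7a, Rspo1, Rspo3 and Sfrp2) held one, where 17.1% of all windows of this length did. A match is a run of letters and not a known binding site, and its absence here covers this window only.

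Other target and feedback genes had other orders of levels. Nkd1, an inhibitor induced by the pathway, had 3.13, 7.65 and 2.60 CPM in EEP, 10.3, 11.9 and 13.5 in CP, 29.3, 8.06 and 13.2 in AS, and 5.27, 10.3 and 7.48 in normal. EEP stood lower than AS by -1.91 (SE 0.579, unadjusted p = 0.00444, adjusted p = 0.351) and lower than CP by -1.41 (SE 0.575, unadjusted p = 0.0261, adjusted p = 0.9997). Msx2, a homeobox gene and target, averaged 8.56 CPM in EEP and 4.12 in CP (log2 fold change 1.05, unadjusted p = 0.119, adjusted p = 0.9997). Rnf43, the ligase that R-spondins oppose, had 1 count in each AS library. It read 5.26, 2.70 and 5.49 CPM in EEP, 0.754, 2.52 and 2.09 in CP, and 4.11, 0.701 and 5.76 in normal. Its pooled level in EEP was 25.2 times that in AS (126 against 3 counts, 95% counting interval 8.44 to 124, adjusted p = 0.335). In CP it was 10.3 times that in AS (29 against 3 counts, interval 3.20 to 53.03, adjusted p = 0.312). AS, with its 3 counts, also stood below normal with 106, the normal level being 19.2 times that of AS (interval 6.39 to 94.6, adjusted p = 0.590). These intervals cover counting error only and leave out the spread between libraries, so they do not measure a difference between groups. The adjusted p-values are those of the edgeR test on the separate libraries and do not test the pooled ratios. EEP 1 held 89 of the 126 EEP counts, while CP 1 had 3 counts and normal 2 had 7.

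Among receptors and ligands outside the 10, Lgr6, a relative of Lgr5, had 3.84, 11.6 and 2.31 CPM in EEP, 4.52, 8.06 and 34.6 in CP, 22.4, 12.7 and 10.9 in AS, and 3.48, 2.20 and 1.63 in normal. All CP and AS libraries lay above all normal ones, whereas for Lgr5 all AS libraries lay below all normal ones and CP overlapped normal. The Lgr6 mean in CP rested on CP 3, and EEP against CP gave -1.40 with it (unadjusted p = 0.0717, adjusted p = 0.9997) and -0.07 without it. The log2 fold change was 2.69 in CP against normal (SE 0.764, unadjusted p = 0.00273, adjusted p = 0.211), with 1.38 without CP 3, and 2.65 in AS against normal (SE 0.762, unadjusted p = 0.00302, adjusted p = 0.656). Lgr4, a further R-spondin receptor, had 8.69, 9.01 and 1.73 CPM in EEP against 12.9, 25.5 and 14.6 in normal (log2 fold change -1.41, SE 0.599, unadjusted p = 0.0311, adjusted p = 0.632).

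Wnt2, a stromal ligand, had 23.2, 22.2 and 12.4 CPM in EEP, 5.28, 11.8 and 10.1 in CP, 0.167, 4.41 and 5.53 in AS, and 9.17, 15.6 and 25.8 in normal. Every AS library lay below every EEP and every normal library, with a log2 fold change of 2.53 in EEP against AS (SE 0.740, unadjusted p = 0.00340, adjusted p = 0.348) and -2.33 in AS against normal (SE 0.735, unadjusted p = 0.00574, adjusted p = 0.724). The co-receptor Lrp6 stood above AS in CP by 2.56 (SE 0.900, unadjusted p = 0.0115, adjusted p = 0.312), and by 1.48 without CP 1 and 3.59 without AS 2, with 16.6, 2.85 and 4.38 CPM in CP against 0.335, 2.69 and 0.988 in AS.

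**Figure D5:**
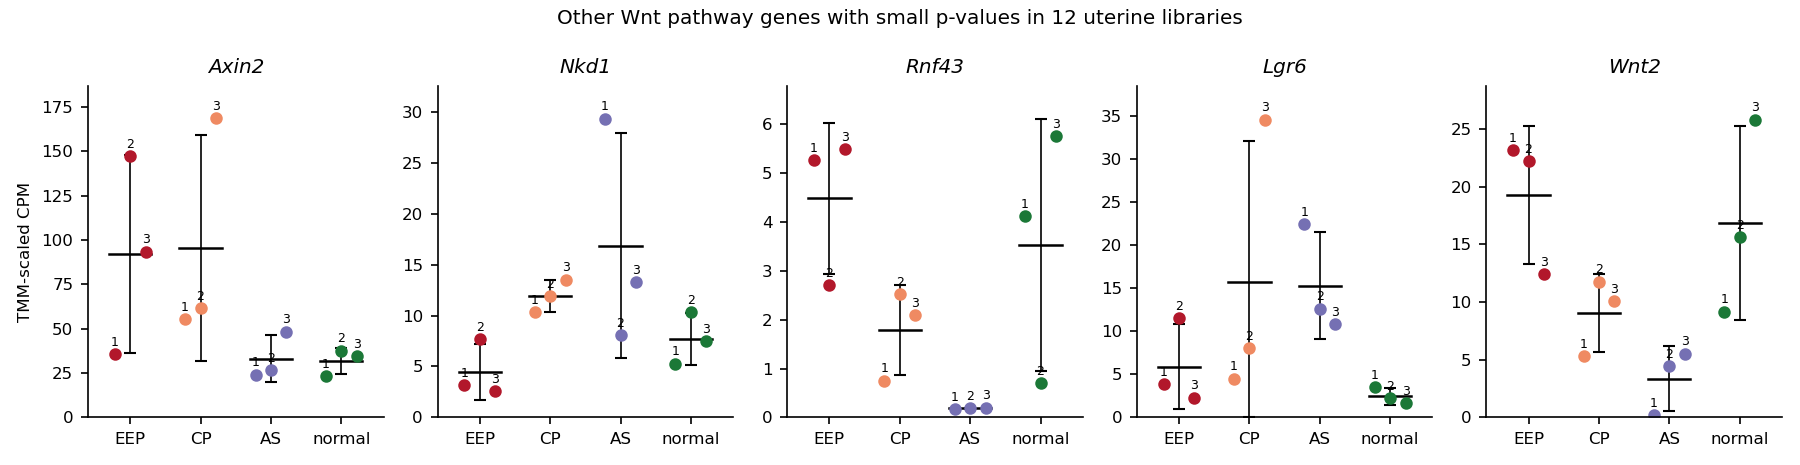
Levels in CPM (y axis) of pathway genes outside the 10, by group (x axis: EEP, CP, AS, normal); dots are libraries marked with their replicate number, bars the group mean and whiskers the SD, stopped at 0. Axin2 was higher in every CP library (55.6 to 169 CPM) than in any AS or normal library, and Wnt2 lower in every AS library than in any normal library.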

How the data were processed

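RNA of rat uterine tissue (1000 ng per library) was sequenced as QuantSeq 3′ mRNA libraries with single-end reads of 75 bp, per the labels' protocols and design text. The values are raw counts per gene and library as deposited by the authors. Alignment with Bowtie2 and counting with bedtools are named in the submitters' processing notes without versions. The build is unsettled: mRatBN7.2 (rat) per the deposited information sheet, mm10 (mouse) per the processing notes. Coordinates are those of the deposited table, with chromosome names looked up by gene ID in RefSeq's table. The kit counts 3′ ends, so a level depends on the annotated 3′ end of the gene. Whether counting used strand is not given in the sources used here.

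Counts were tested with edgeR 4.0.16 (limma 3.58.1, R 4.3.3): genes kept by filterByExpr (minimum count 10, 13909 of 34034 genes, all 10 members among them), TMM scaling (factors 0.493 to 2.36), 1 quasi-likelihood fit over all 12 libraries and 4 groups with no covariate, and Benjamini-Hochberg adjustment over all tested genes. The fit was tested on simulated data. Alternatives were RLE scaling, DESeq2 1.42.0, no filter, mitochondrial genes removed, a replicate block and each library left out. Marker sums are CPM summed over short lists of cell-type genes, and correlations over the 12 libraries are on log2(CPM + 1), with r also given without the 2 libraries farthest from the median. They are descriptions of libraries that share tissue and depth. Promoters and TCF/LEF words came from RefSeq's GRCr8 tables, in which 31680 of 34034 gene IDs matched. Fold changes are given with their SE for a member's comparisons with an unadjusted p under 0.05, or otherwise its smallest p. Rspo1 in EEP against normal was added after its values were seen. For other pathway genes, the 3 with the smallest p per comparison are named. Of these, Rnf43 is given as pooled count ratios, and its fold changes were not followed over the alternatives. The members and gene lists were chosen with earlier results of these data known. The 3 genes with the highest r with a member are its most alike genes. LOC120093591 was added after its overlap with Lgr5 was seen.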

Additional observations from a re-analysis of the deposited data

How the results depend on the processing

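Of the 14 member differences chosen by their p, the sign held in 153 of 154 alternative values. Rspo1 in EEP against normal, printed besides these, turned to -0.14 without EEP 3. Wnt7b in AS against normal turned to -1.54 without AS 1, against 1.84 with it and up to 2.83 without normal 3. Members called with an adjusted p under 0.05 were 0 in every comparison. Without the low-count filter they were 2 in AS against normal (Lgr5 0.00378, Sfrp1 0.0109), 1 in CP against AS (Sfrp2 0.0343) and 2 in CP against normal (Sfrp1 0.00130, Sfrp2 0.00549), and by DESeq2 1 in CP against normal (Sfrp1 0.0397). The cause was not tested. Leaving out single libraries gave 0 to 0 called members, except 0 to 1 in EEP against normal (Rspo1 without EEP 1). Over all genes, DESeq2 called 34 and the unfiltered fit 154 in AS against normal (1 in the reported fit), 132 and 230 in CP against AS (1), 140 and 143 in EEP against AS (2), 1 and 5 in EEP against CP (0), 276 and 445 in CP against normal (0), and 78 and 232 in EEP against normal (1, or 0 with mitochondrial genes removed). Leaving out libraries gave 1 to 6, 1 to 5, 1 to 19, 0 to 0, 0 to 6 and 0 to 200 genes in the same order, the highest without normal 2, AS 1, EEP 1, none, normal 2 and EEP 1. The replicate block called 11 genes in CP against normal, 4 in EEP against normal and 3 in EEP against AS, and no member. With 3 libraries per group, it could neither be shown nor excluded that the numbers pair the samples. The 18 same-number correlations ran from -0.121 to 0.446 (EEP 1 with AS 1), and the own number correlated best in 7 of them. Low counts of Wnt7a, Wnt7b and Lgr5 and the mitochondrial share limit what these libraries can resolve.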
